A study of Homo sapiens with 2 samples.

Results

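Genes that build, branch, cut, bundle and pull on actin filaments were examined in AGS cells, an epithelial line from a human gastric adenocarcinoma, after silencing of galectin-3. The group holds 42 genes, of 19775 named on the array, chosen by function with earlier results of these data known, so shares of its genes set beside those of all genes are descriptions, and each was followed through all of its probe sets. They fall into 5 roles, namely bundling and cross-linking, branching and filament growth, turnover and monomer binding, tropomyosin and myosin, and linkers between filaments and the membrane. Of the 42 genes 39 had at least 1 probe set that carries their symbol alone, 117 probe sets in all, while FLNA, TPM3 and WASF1 had none and are not analysed here. The samples were 1 array of AGS cells with galectin-3 silenced by a synthetic small interfering RNA, and 1 array of AGS cells labelled control, whose treatment the labels do not state. Both arrays are one-colour Affymetrix arrays of total RNA with 54675 probe sets. The design compares expression after silencing of galectin-3 with that of the control. Since each group is a single array, differences below are sizes with no replicate error behind them, no test was possible, and the precision of every value is limited by the number of arrays.

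Actin monomers join into polar filaments that grow at one end and are taken apart at the other. Nucleators such as the Arp2/3 complex start new filaments as branches and push the leading edge forward, while bundling proteins, tropomyosins and myosin II turn filaments into contractile cables. Proteins of the ezrin, radixin and moesin family tie the filaments under the membrane, and in epithelial cells they shape the apical surface and its microvilli. Loss and gain of these proteins is known to alter the shape and migration of carcinoma cells.

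LGALS3, the targeted gene, had a signal of 2699.8 on the silenced array and 20206.3 on the control array, a log2 ratio of -2.90. The signals are those of the MAS5 algorithm, which had brought both arrays to the same trimmed mean of about 500.1. A floor for dim signals, set at the level below which 95% of the probe sets for olfactory receptor genes lie, was 109.5 on the silenced array and 138.4 on the control array. Epithelial markers were present, with all 7 of the listed genes (KRT8, KRT18, KRT19, EPCAM, CDH1, CLDN4 and CLDN7) above the floor on both arrays, and their summed signal was 112993 on the silenced array and 92475.3 on the control array. All 7 had a ratio above 0 at the deposited scaling, beside 5112 of all 10514 genes measured. EPCAM (0.04) and KRT18 (0.12) turn under 0 with the poly-A spike-in controls set equal, which lowers every ratio by 0.23. The median log2 ratio of the 7 was 0.43 at the deposited scaling, and their part in the results below was not tested. Of the markers of other cell types, 6 of 8 for fibroblasts, 4 of 6 for smooth muscle, 7 of 8 for leukocytes and 3 of 4 for endothelium lay below the floor on both arrays. The summed signal of the fibroblast markers was 2589.4 on the silenced and 3343.3 on the control array, and that of the smooth muscle markers 685.2 on the silenced and 623.6 on the control array. For leukocytes the sum was 27448.1 on the silenced and 25830.1 on the control array, and for endothelium 157.3 on the silenced and 189.1 on the control array. Nearly all of the leukocyte sum was LYZ, which gastric epithelium also makes, while the smooth muscle genes MYH11, CNN1 and DES were below the floor. ACTA2, smooth muscle actin, was above it with 335.4 on the silenced and 418.8 on the control array. The smooth muscle marker ACTG2 went the other way. It was above the floor on the silenced array only, with 176.9 there and 60.9 on the control array. The fibroblast markers above the floor went opposite ways. COL1A1, a fibrillar collagen, had 1502 on the silenced and 816.3 on the control array, with 3 probe sets from -0.55 to 0.88, and PDGFRA, a growth factor receptor, had 921.1 on the silenced and 2295.8 on the control array, with 2 probe sets at -1.32 and 0.70. In RNA from whole cultures, fewer cells that express a gene and less RNA of it per cell cannot be told apart.

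On the silenced array the group's genes of bundling, tropomyosin and myosin were mostly higher, and its genes of branching were mostly close to the control. Its genes of turnover and monomer binding were close to the control or slightly lower, except GSN. Each gene was read from its brightest probe set by mean log2 signal, and 33 of the 42 genes were above the floor on both arrays by that probe set. Of these 33 genes 1, GSN, was at least 2-fold higher, beside 3.31% of all 10514 genes measured, and 0 were at least 2-fold lower, beside 3.07%. By a smaller size of 1.5-fold, 10 of the 33 genes (30.3%) were higher and 1 (3.03%) was lower, beside 10.6% and 10.4% of all genes. The higher genes were GSN, MYL9, VIL1, MYO10, ACTN4, EZR, TPM4, TPM1, MYH9 and PALLD, and the lower gene was MSN. Just inside the 1.5-fold size stood PALLD at 1.504-fold and MYH9 at 1.51-fold, and the nearest gene outside it was DIAPH3 with a log2 ratio of -0.49, followed by WASL at -0.48 and PFN1 and SVIL at -0.39 and 0.39. The median log2 ratio of the 33 genes was 0.15 and that of all genes was -0.02. With the poly-A spike-in controls set equal on the arrays the median of the 33 genes turned to -0.08 and that of all genes moved to -0.25, and with the hybridization controls set equal they were 0.33 and 0.17. Relative to all genes the median was 0.16 with any of these 3 scalings, as it had to be, since they differ by the same shift for every gene. Under the poly-A scaling the count of higher genes was 5 (GSN, MYL9, VIL1, MYO10 and ACTN4) and that of lower genes 4 (MSN, DIAPH3, WASL and PFN1), beside 5.50% and 20.7% of all genes. Without probe sets of the _s_at and _x_at kinds, which leave 25 of the genes measured, 4 were higher (ACTN4, VIL1, TPM1 and EZR) and 1 was lower, beside 10.8% and 11.6% of all genes. Among genes with a mean signal of at least 1000, which holds 32 of the 33, 9.38% of all 5152 genes were at least 1.5-fold higher and 9.24% lower, beside 10 and 1 of the 32.

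**Figure D1:**
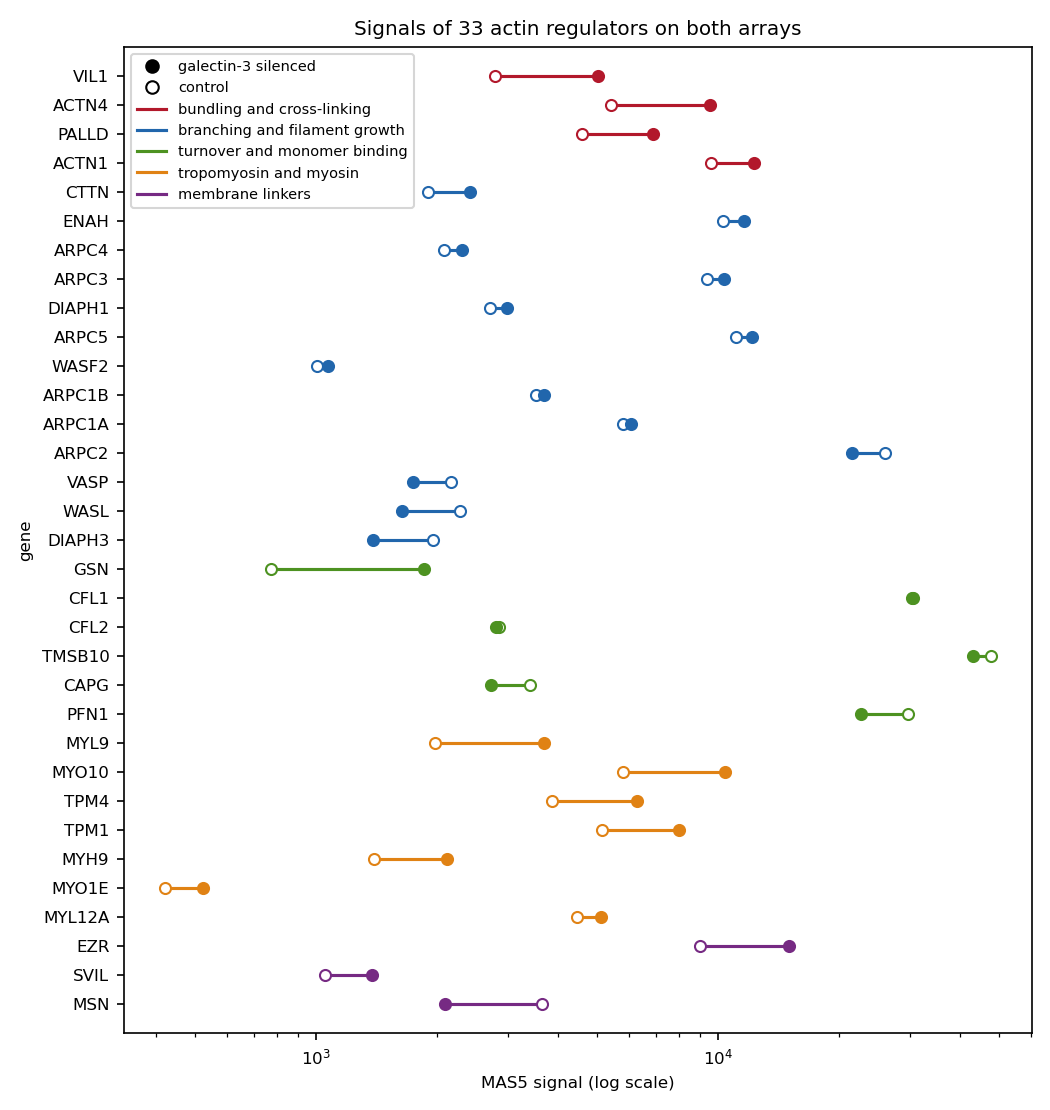
MAS5 signal (log scale) of the probe set that stands for each of the 33 measured genes, with the silenced array as filled and the control array as open points, ordered by role and within a role by log2 ratio. At the deposited scaling all genes of the bundling role and of the tropomyosin and myosin role have the silenced point to the right of the control point, while MSN has it to the left with signals of 2095.1 on the silenced and 3640.7 on the control array; MYL12A turns the other way under the poly-A scaling.

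The probe sets of a gene gave a measure of technical spread on the same RNA. Within 1 gene the log2 ratios of the probe sets had an SD of 0.33 over the 21 members for which several probe sets passed the floor on both arrays, and 0.32 over 4728 such genes of the whole array. In 12 of the 21 genes all such probe sets were higher, in 2 (ARPC2 and DIAPH3) all were lower, and in 7 they went both ways. Over single probe sets, 22 of 77 with a direction were at least 1.5-fold higher, beside 11.0% of all probe sets with 1 gene symbol, and 4 were at least 1.5-fold lower, beside 11.7%. The lower ones belonged to MSN, MYO10, CFL2 and ENAH, of which all but MSN also had probe sets with a ratio above 0. By 2-fold, 4 of the 77 were higher, beside 3.32%, and 0 were lower, beside 3.26%. These 4 were both GSN probe sets above the floor and 1 each of MYO10 and TPM1, the TPM1 one with its control signal under the floor. No ratio was formed for 39 of the 117 probe sets, whose 2 signals were both under the floor.

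The sequence before the start of each gene was searched for the CArG box, the site of serum response factor that is known from genes of the actin cytoskeleton. RefSeq promoters of build GRCh38.p14, from 250 bases before to 50 bases after each annotated start, were on hand for 35 of the 42 genes with 63 starts. A CArG box was found at 5 of these 63 starts (7.94%), each in a different gene, and at 1.29% of all 35097 starts. The genes were ACTN1, TPM4, MYO1E, SVIL and FLNA. The first 4 were measured, and all 4 had a ratio above 0, from 0.31 to 0.70, but 19 of the 29 measured genes without the box in these windows also had a ratio above 0. Their 250 bases before the start are shown because they hold the box, in capitals, 5′ to 3′ on the strand of the gene. ACTN1 is on the minus strand at chr14:68977567-68977816, TPM4 on the plus strand at chr19:16067288-16067537, MYO1E on the minus strand at chr15:59372872-59373121 and SVIL on the minus strand at chr10:29634972-29635221.
ACTN1: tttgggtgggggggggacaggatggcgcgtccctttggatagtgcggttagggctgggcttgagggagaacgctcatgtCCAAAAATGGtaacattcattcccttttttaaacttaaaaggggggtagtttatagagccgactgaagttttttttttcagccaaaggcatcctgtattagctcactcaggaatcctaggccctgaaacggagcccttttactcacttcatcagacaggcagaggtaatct
TPM4: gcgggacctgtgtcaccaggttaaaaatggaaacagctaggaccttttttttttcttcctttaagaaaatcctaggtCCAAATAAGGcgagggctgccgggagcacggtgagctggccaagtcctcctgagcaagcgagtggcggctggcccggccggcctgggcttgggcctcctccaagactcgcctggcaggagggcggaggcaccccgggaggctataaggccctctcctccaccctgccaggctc
MYO1E: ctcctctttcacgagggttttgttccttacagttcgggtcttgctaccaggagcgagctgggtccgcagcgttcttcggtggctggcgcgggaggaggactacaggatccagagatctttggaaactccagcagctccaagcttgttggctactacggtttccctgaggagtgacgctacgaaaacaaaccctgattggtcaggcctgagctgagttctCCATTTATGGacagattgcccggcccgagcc
SVIL: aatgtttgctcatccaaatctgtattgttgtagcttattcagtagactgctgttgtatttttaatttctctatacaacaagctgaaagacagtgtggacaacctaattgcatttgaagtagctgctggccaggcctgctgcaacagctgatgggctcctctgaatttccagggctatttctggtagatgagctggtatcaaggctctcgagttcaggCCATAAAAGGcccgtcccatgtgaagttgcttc
The box began 171 bases before the start in ACTN1 and 173 in TPM4, and 31 in MYO1E and 33 in SVIL. Each of these is 1 of the annotated starts of its gene, and which start AGS cells use was not measured. The MCAT motif of TEAD factors, CATTCC on either strand, was found at 7 of the 63 starts (11.1%) and at 14.0% of all starts. Counted by gene it was found in 7 of the 35 (20%) and in 16.7% of all genes, so the direction depends on the unit counted. It lay in ACTN1, DIAPH3, MYH10, MYH9, MYL12A, PALLD and PFN1, and overlapped no CArG box. In PALLD it occurred at 216 and at 54 bases before a start. A match is a string of letters and not a site shown to be bound.

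Bundling and cross-linking genes were higher on the silenced array. All 4 measured genes had a ratio above 0, beside 5112 of all 10514 genes, and 3 were past 1.5-fold, beside 10.6%. The median log2 ratio was 0.70, or 0.47 with the poly-A controls set equal. VIL1, villin, which bundles and at high calcium cuts the filaments of microvilli, had signals of 5018.5 on the silenced and 2778.7 on the control array, 1.81-fold. The next probe set had 3924.9 on the silenced and 2688.1 on the control array and a dim one 565.9 on the silenced and 447.3 on the control array, but the cross-hybridising probe set had 498.4 on the silenced and 571.1 on the control array. Thus 3 of 4 probe sets of VIL1 were higher, and the log2 ratios ran from -0.20 to 0.85.

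ACTN4, an alpha-actinin that cross-links filaments and is known from motile carcinoma cells, had 9565.5 on the silenced and 5417.7 on the control array, 1.77-fold, on its single probe set. Its relative ACTN1, the alpha-actinin of stress fibres and focal adhesions whose promoter is shown above, had 12244.3 on the silenced and 9606.2 on the control array. The log2 ratio of 0.35 for ACTN1 stopped short of 1.5-fold, while another of its probe sets, of the cross-hybridising kind, reached 0.64 with 3155.2 on the silenced and 2020.9 on the control array. Both alpha-actinins were therefore higher, ACTN1 by less than the ACTN4 probe set.

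PALLD, palladin, a scaffold along stress fibres, had 6875.7 on the silenced and 4572.3 on the control array, 1.504-fold. Another probe set gave 3786.5 on the silenced and 2229 on the control array, and a dimmer one 1022.9 on the silenced and 544.3 on the control array. All 3 were higher, with log2 ratios from 0.59 to 0.91. FSCN1, fascin, the bundler of filopodia, was below the floor on both arrays with both probe sets, at 61.7 on the silenced and 51.9 on the control array for the brighter one by mean log2 signal, and gave no ratio.

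Tropomyosins and myosins were the other role with mostly higher signals. All 7 measured genes had a ratio above 0 (MYL12A turned to -0.03 under the poly-A scaling), beside 5112 of all 10514 genes. Past 1.5-fold were 5 of the 7, beside 10.6% of all genes. The median log2 ratio was 0.64, or 0.41 with the poly-A controls set equal. Without probe sets of the _s_at and _x_at kinds 5 of these genes were measured, 4 were above 0 and 1 (TPM1) was past 1.5-fold, and the median was 0.20. MYL9, the regulatory light chain through which phosphorylation switches on myosin II, had 3697 on the silenced and 1977.4 on the control array, 1.87-fold. This rests on 1 probe set, since the other, with 63.6 on the silenced and 126.7 on the control array, was below the floor on both. MYH9, the heavy chain of non-muscle myosin IIA, had 2114.5 on the silenced and 1395.8 on the control array, 1.51-fold, on 1 probe set. MYL12A, a light chain nearly identical to MYL12B, was higher by less, with log2 ratios from 0.20 to 0.52 over 4 probe sets that may not tell the 2 genes apart. The brightest gave 5114.6 on the silenced and 4454.8 on the control array. MYH10, the heavy chain of myosin IIB, was below the floor on both arrays, at 33.8 on the silenced and 69.6 on the control array.

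TPM1 and TPM4, tropomyosins that coat filaments and set which myosins and severing proteins reach them, were both past 1.5-fold. TPM1 had 8009.5 on the silenced and 5133.2 on the control array, 1.56-fold, and 2 further probe sets gave log2 ratios of 0.75 and 0.81. A dimmer TPM1 probe set was above the floor on the silenced array only, with 331.1 there and 101 on the control array, which makes it at least 2.39-fold higher. All 4 TPM1 probe sets with a direction were thus higher.

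TPM4, whose CArG box is shown above, had 6266.2 on the silenced and 3863.9 on the control array, 1.62-fold, and a second probe set had the same log2 ratio of 0.70. A further TPM4 probe set differed, with 2965.5 on the silenced and 2688.7 on the control array and a log2 ratio of 0.14. TPM2, a tropomyosin of muscle and fibroblasts, was below the floor on both arrays with all 4 probe sets, at 5.2 on the silenced and 32.6 on the control array for the one that stands for the gene.

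MYO10, the motor that carries cargo to the tips of filopodia, gave the widest disagreement between its probe sets. The brightest had 10391.5 on the silenced and 5801.8 on the control array, 1.79-fold, and a dim one had 487.3 on the silenced and 215.7 on the control array, a log2 ratio of 1.18 that is past 2-fold. The other 3 were dim and lower or level, with log2 ratios of -0.67, -0.07 and -0.03, so the ratio of MYO10 turned to -0.03 when the median of its probe sets was taken and to -0.07 without probe sets of the _s_at and _x_at kinds. MYO1E, a single-headed motor that binds membranes, had 523.7 on the silenced and 422 on the control array, and its log2 ratio of 0.31 did not reach 1.5-fold.

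**Figure D2:**
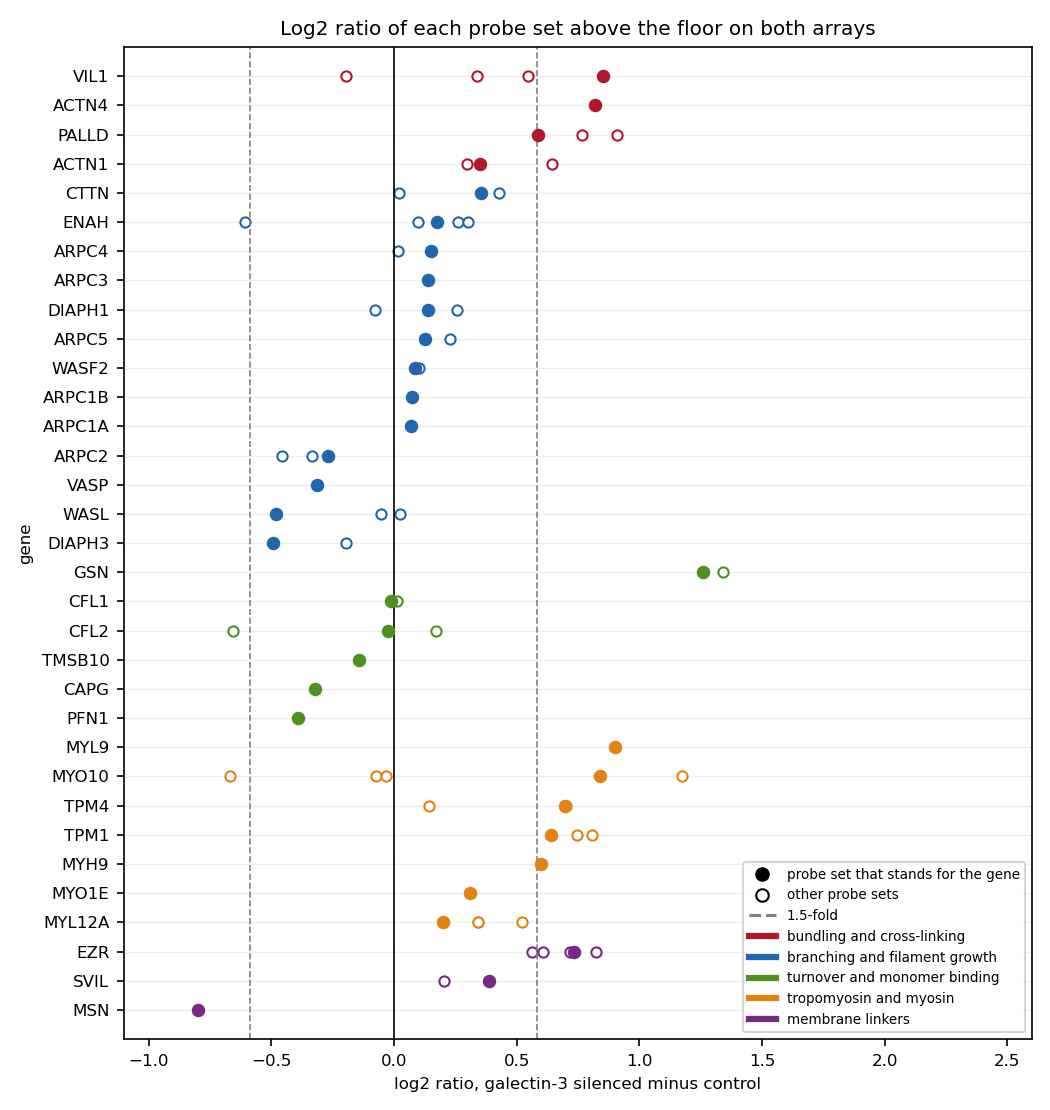
Log2 ratio (silenced minus control) of each probe set that passed the floor on both arrays, 1 row per gene, with the probe set that stands for the gene filled and the others open; dashed lines mark 1.5-fold. The 5 EZR probe sets lie together between 0.56 and 0.82, and the 5 MYO10 probe sets are spread from -0.67 to 1.18.

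The linkers between filaments and membrane went both ways. EZR, ezrin, the linker of epithelial microvilli, had 14955.8 on the silenced and 8983 on the control array, 1.66-fold. All 5 EZR probe sets were higher, with log2 ratios from 0.56 to 0.82, and even the dimmest had 262.1 on the silenced and 159.4 on the control array. MSN, moesin, the relative that predominates in leukocytes and endothelium, had 2095.1 on the silenced and 3640.7 on the control array. It was 1.74-fold lower, on its single probe set above the floor, with a log2 ratio of -0.80 that ran from -1.03 to -0.62 over 12 other ways of processing. RDX, radixin, the remaining one of the family, was below the floor on both arrays with all 4 of its probe sets. Within the family, then, ezrin was higher, moesin was lower and radixin was below the floor. SVIL, supervillin, which ties myosin II and filaments to the membrane, had 1381.9 on the silenced and 1055.9 on the control array, a log2 ratio of 0.39 short of 1.5-fold. Its second probe set above the floor gave 0.20.

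Genes of branching and filament growth stayed within 1.5-fold at the deposited scaling. All 13 measured genes were short of it in both directions, but so were 8306 of all 10514 genes. The log2 ratios of the 13 ran from -0.49 to 0.35. Their median of 0.09 turned to -0.15 under the poly-A scaling while all genes moved to -0.25. Under that scaling 2 of the 13, DIAPH3 and WASL, were past 1.5-fold lower, beside 20.7% of all genes. The subunits of the Arp2/3 complex, the branching nucleator, spanned a narrow range. ARPC1A had 6080.3 on the silenced and 5799.8 on the control array, and ARPC1B had 3694.7 on the silenced and 3513.2 on the control array. ARPC3 had 10307.9 on the silenced and 9356.4 on the control array. With ARPC4 and ARPC5 these 5 subunits had log2 ratios from 0.07 to 0.15, all under the spread between probe sets of 1 gene, and under the poly-A scaling all 5 turned to between -0.17 and -0.08. ARPC2 stood on the other side, with 21516.6 on the silenced and 25929.6 on the control array, and its 3 probe sets gave -0.27, -0.34 and -0.46.

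The activators and partners of the complex were also short of 1.5-fold. CTTN, cortactin, which steadies the branch point, had 2419.6 on the silenced and 1894 on the control array, a log2 ratio of 0.35. WASF2, the WAVE2 activator of lamellipodia, had 1068.8 on the silenced and 1006.8 on the control array, and its log2 ratio of 0.09 turned to -0.15 under the poly-A scaling. WASL, or N-WASP, had 1632.3 on the silenced and 2279.5 on the control array on its brightest probe set, but its log2 ratio of -0.48 was not repeated by the 2 others, at 0.03 and -0.05. The probe sets of WASL thus gave no common direction.

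Among the factors that lengthen unbranched filaments, the formin DIAPH3 had 1387.1 on the silenced and 1949.7 on the control array, a log2 ratio of -0.49, and its second probe set gave -0.20. The formin DIAPH1, which acts downstream of RHOA, had 2977.1 on the silenced and 2702.8 on the control array, with 3 probe sets between -0.08 and 0.26. VASP and ENAH, which protect growing ends from capping, differed in sign. VASP had 1743.3 on the silenced and 2165.9 on the control array, and ENAH had 11601.6 on the silenced and 10265.5 on the control array. ENAH probe sets ran from -0.61 to 0.30, with 4 of 5 above 0. Under the poly-A scaling DIAPH1 turned to -0.09 and ENAH to -0.06. EVL, of the same family, was below the floor on both arrays.

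Turnover genes were level or slightly lower, with 1 exception. GSN, gelsolin, which cuts filaments and caps their ends when calcium rises, had 1850.7 on the silenced and 773.5 on the control array, 2.39-fold. A second GSN probe set had 517.2 on the silenced and 204.2 on the control array, a log2 ratio of 1.34, so both probe sets above the floor were past 2-fold, and the ratio of GSN stayed between 1.03 and 1.44 over the 11 other ways of processing that gave it a value. The other 5 of its 7 probe sets were below the floor on both arrays.

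The other 5 of the 6 measured genes of turnover had log2 ratios under 0, from -0.39 to -0.01, beside 5401 of all 10514 genes under 0. PFN1, profilin, which loads monomers for formins, had 22606.8 on the silenced and 29608.4 on the control array, a log2 ratio of -0.39. CAPG, a gelsolin relative that caps filaments without cutting them, had 2719.9 on the silenced and 3397.4 on the control array, so GSN and CAPG were on opposite sides of the control. TMSB10, a monomer-sequestering thymosin, had 43070.7 on the silenced and 47568.6 on the control array, and its ratio of -0.14 turned to 0.04 with the hybridization controls set equal. The cofilins, which sever aged filaments, were level on the probe sets that stand for them, with 30296.3 on the silenced and 30510.9 on the control array for CFL1, and 2800.3 on the silenced and 2850 on the control array for CFL2. A second CFL2 probe set was lower, with 815.5 on the silenced and 1283.4 on the control array, while the last had a log2 ratio of 0.17. PFN2, a profilin best known from neurons, was below the floor on both arrays. The median of the role was -0.08, and it turned to 0.10 with the hybridization controls set equal.

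Of 101 further genes of the actin pathway, picked by role, 78 were measured. At least 1.5-fold higher were 13 (16.7%) of them and 2 (2.56%) were lower by that size, beside 10.6% and 10.4% of all genes, and the median log2 ratio was 0.15, or -0.08 with the poly-A controls set equal. Under the poly-A scaling 5 (6.41%) were higher (RHOB, RHOU, MYO1D, DAAM1 and LIMA1) and 8 (10.3%) were lower, beside 5.50% and 20.7% of all genes, so that more were lower than higher. By 2-fold 2 were higher and 2 lower, beside 3.31% and 3.07% of all genes. Further myosins and tropomyosin-associated genes had the highest median, 0.47, with 5 of 13 past 1.5-fold higher and 0 lower, beside 10.6% and 10.4% of all genes. Under the poly-A scaling MYO1D alone of the 13 stayed past 1.5-fold higher, and MYO5C and MYO9B were past 1.5-fold lower. MYO1D, a membrane-binding motor, had 2068.7 on the silenced and 1049.5 on the control array. MYH14, the heavy chain of non-muscle myosin IIC, had 720.1 on the silenced and 419.6 on the control array. With MYH9 this makes both myosin II heavy chains above the floor higher, MYH14 by 1.72-fold.

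Further genes of branching and growth had a median of 0.15, with 3 of 16 (18.75%) past 1.5-fold higher and 0 lower, beside 10.6% and 10.4% of all genes. Unlike the members of that role, this list therefore did not stay within 1.5-fold. The 3 genes were DAAM1, BRK1 and WIPF2, of which DAAM1 alone stayed past 1.5-fold under the poly-A scaling. DAAM1, a formin, was 1.91-fold higher with 2715.4 on the silenced and 1423.1 on the control array. ACTR3, a core subunit of Arp2/3, had a log2 ratio of 0.11, with 3 probe sets from -0.05 to 0.14. Further bundling genes had a median of 0.18 and went both ways. LIMA1, which bundles and stabilises filaments, had 5047.8 on the silenced and 2655.1 on the control array, while PLS1, the plastin of intestinal microvilli, had 1668.5 on the silenced and 4773 on the control array and was 2.86-fold lower on its single probe set. Of the microvillus genes named here, then, VIL1 and EZR were higher and PLS1 was lower.

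Further turnover genes had a median of -0.08, with 1 of 11 past 1.5-fold higher and 1 lower (9.09% each), beside 10.6% and 10.4% of all genes. The higher one, TMSB4X, a thymosin, had 33216.7 on the silenced and 21494.6 on the control array, 1.55-fold. TMOD3, which caps the slow-growing ends of tropomyosin-coated filaments, was 3.19-fold lower, with 824.1 on the silenced and 2627.7 on the control array, on its brightest probe set, and its 3 probe sets above the floor had log2 ratios from -1.67 to -0.40. Further membrane linkers had a median of 0.04, with 0 of 7 past 1.5-fold higher or lower, beside the same 10.6% and 10.4%. Actin itself and the upstream regulators had a median of 0.17. RHOB, a small GTPase that governs stress fibres and endosomes, had 10458.7 on the silenced and 3244 on the control array, and RHOU, a relative of CDC42, had 3703.1 on the silenced and 1603 on the control array. ACTB, the cytoplasmic actin gene, was level, with 36971.2 on the silenced and 38543.6 on the control array.

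**Figure D3:**
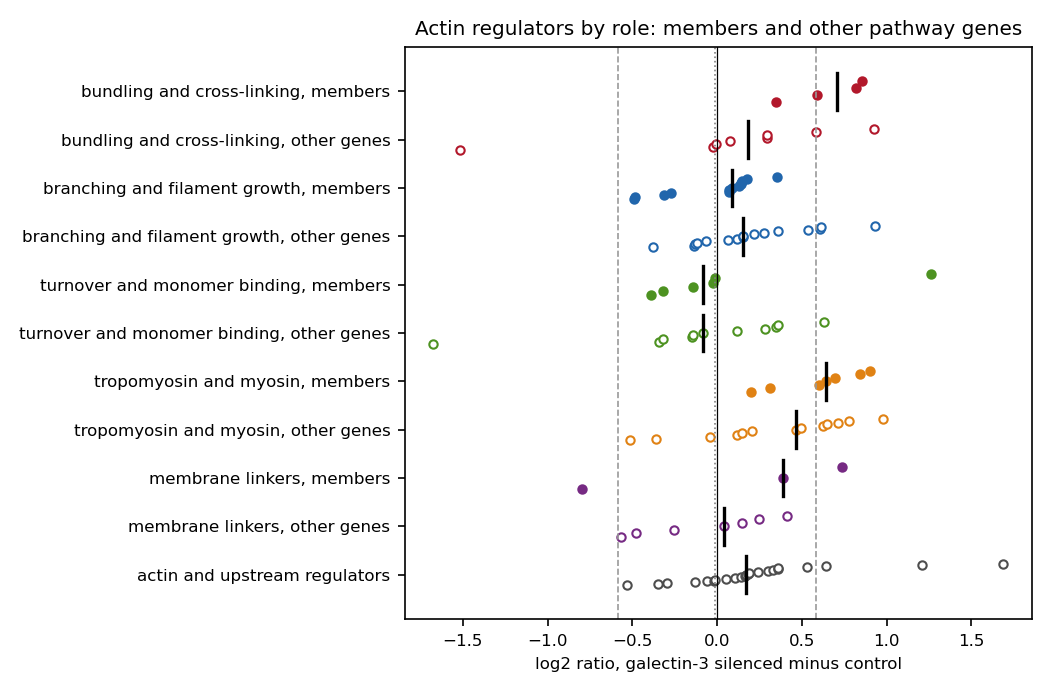
Log2 ratio (silenced minus control) by role, with the 33 measured genes filled, the 78 further genes of the pathway open, black bars at the median of each row, dashed lines at 1.5-fold and a dotted line at the median of all genes. The medians are 0.70 for bundling members and 0.64 for tropomyosin and myosin members, against 0.09 for branching and -0.08 for turnover members; the last 2 change sign under the poly-A or the hybridization scaling.

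Of the 11 genes past 1.5-fold, 10 kept their sign under all 12 other ways of processing that gave them a value, MYO10 being the exception. ACTN4 and MSN were past 1.5-fold the same way under all 12, and GSN and MYL9 under the 11 that gave them a value. For ACTN4, MSN and MYL9, with 1 probe set each above the floor, the other floors and probe set rules could give no other value. Their stability was thus partly fixed in advance.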

How the data were processed

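The deposited values are intensity values (signals) on a linear scale, 1 array per group, made by the authors using MAS5 as the submitters' processing notes record. No source used here states its version, target or filters. Probe sets were named from the platform annotation, which gives 41097 probe sets 1 gene symbol, 1801 several and 11777 none here; only those with 1 symbol were used. Signals below a floor (the 95th percentile of 135 olfactory receptor probe sets, per array) were raised to it, and a probe set below it on both arrays gave no ratio. A gene took its brightest probe set by mean log2 signal, without _x_at probe sets where another existed. The log2 ratio is silenced minus control. Differences are described by size, 2-fold and 1.5-fold, since 1 array per group allows no test. All members were named. For members past 1.5-fold, or with a probe set past 2-fold, the signals of all probe sets were planned. The text gives those of the brightest, and some other probe sets only as log2 ratios or ranges. The 6 highest and 6 lowest further pathway genes past 1.5-fold above the floor on both arrays were to be named, of which 2 were lower. ACTB, ACTR3, BRK1, WIPF2, TMSB4X, MYO5C and MYO9B were named after their values were seen. The members and lists were chosen with earlier results of these data known. The 12 alternatives of scaling, floor, offset and probe set were run. The 2-fold call and the size of the ratios were tested on simulated data with planted changes larger than 2-fold. The 1.5-fold size was not tested in this way. Python 3.11.15, pandas 2.3.3, numpy 2.4.6 and statsmodels 0.14.6 were used.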

Additional observations from a re-analysis of the deposited data

How the results depend on the processing

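No paired analysis was possible because each group has 1 array. The members' count at least 1.5-fold higher, 10 as reported, was 5 (beside 5.50% of all genes) with the poly-A controls set equal and 4 of 25 (beside 10.8%) without _s_at and _x_at probe sets. The count at least 1.5-fold lower, 1 as reported, was 4 (beside 20.7% of all genes) with the poly-A controls set equal and 3 of 39 (beside 21.0%) without a floor. The count at least 2-fold higher, 1 as reported, was 5 (beside 5.48%) with the hybridization controls set equal. The count at least 2-fold lower, 0 as reported, was 1 (beside 6.02%) with the poly-A controls set equal and 2 (beside 12.4%) without a floor. Of the 78 further pathway genes, 13 were higher and 2 lower by 1.5-fold as reported, beside 10.6% and 10.4% of all genes. With the poly-A controls set equal 5 were higher and 8 lower, beside 5.50% and 20.7%. Without a floor 6 of 91 were lower, beside 21.0% of all genes. With the median of the probe sets 4 of 79 were lower, beside 9.89%. The poly-A and hybridization scalings shift every gene alike, and the other floors and the use of _x_at probe sets left the values of the 33 measured members as they were. MYO10 reversed to -0.032 with the median of its probe sets and to -0.073 without _s_at and _x_at probe sets. Without those probe sets TPM4 was 0.14 and TPM1 was at least 1.26 on the log2 scale. The median of the tropomyosin and myosin genes was then 0.20, and that of the membrane linkers -0.29. The latter is the value of an SVIL probe set with 113 on the silenced and 115.2 on the control array. Its control signal lay under the floor and was raised to it, so its sign gives no direction. With the median of the probe sets VIL1 was 0.44 and WASL -0.05. FSCN1, TPM2, RDX, MYH10, EVL and PFN2 were below the floor on both arrays, so no direction is given for them.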

Other observations

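Probe sets that carry the symbols of several genes were left out of the counts. One such probe set for MYL12B and MYL12A together had 20424 on the silenced and 15478.2 on the control array, a log2 ratio of 0.40, above that of the MYL12A probe set that stands for the gene (0.20) and of MYL12B (0.15). One for ARPC4 and its read-through with a neighbour had 2537.2 on the silenced and 2400.2 on the control array, a log2 ratio of 0.08. Among the regulators of transcription known for actin genes, chosen after their values were seen, SRF had 372.1 on the silenced and 537.1 on the control array (log2 ratio -0.53), with its 2 probe sets both at -0.53. Its cofactor MRTFA had a log2 ratio of 0.36 on 1 probe set, and the 2 probe sets of the cofactor MRTFB disagreed, at 0.36 and -0.31.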
